A study of Equus caballus with 10 samples.

Results

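The WNT ligands, receptors and transducers described here are 50 of the 29196 genes in the deposited table. The rule went by gene name, with earlier results of these data known, and took all genes whose names begin with WNT or FZD followed by a number, together with LRP5, LRP6, ROR1, ROR2, RYK, LGR4 to LGR6, RSPO1 to RSPO3, CTNNB1, AXIN1, AXIN2, LEF1, TCF7, TCF7L1, TCF7L2, RNF43, ZNRF3 and PORCN. Equine tenocytes, the resident cells of tendon, were taken from 5 donors and cultured for 14 days in 3D collagen gels. Each donor gave 1 library treated with PF-06650833 alone (here PF alone), in which this inhibitor of IRAK-4, a kinase of the IL-1 receptor pathway, was given daily at 100 nM, and 1 library treated with IL-1β plus PF-06650833 (here IL-1β + PF), in which IL-1β was also added at 17 ng/ml every few days. All 10 libraries therefore carried the inhibitor, and the question here was what IL-1β changed in its presence. Untreated gels, and gels given only IL-1β, were not analysed here. The cells were unsorted primary cultures from the superficial digital flexor tendon of horses of a range of ages, used after several passages, and several gels of a donor were pooled for each library. The labels do not give the age of each donor.

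WNT proteins are secreted lipid-modified ligands that bind Frizzled receptors. With the co-receptors LRP5 or LRP6 they stop the breakdown of β-catenin, which then acts in the nucleus with proteins of the TCF and LEF family, and without them they signal through receptors such as ROR2 and RYK to the cytoskeleton. R-spondins, through the receptors LGR4 to LGR6, raise the number of Frizzled receptors at the cell surface by holding back the ubiquitin ligases RNF43 and ZNRF3. In tendon and other connective tissues this pathway is known for its part in cell fate, matrix production and mineralisation.

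Values are variance-stabilized log2 expression, a scale on which 0 reads lie at 3.433 and differences between low values are compressed. Reads recovered from the spacing of the low values numbered 26413558 to 35747043 in the PF alone libraries and 26708240 to 33392291 in the others. Genes with an adjusted p under 0.05 and a log2 fold change (log2FC, given with its standard error, SE) of 1 or more in size were called differentially expressed, by limma with Benjamini-Hochberg adjustment over 17992 genes. The fit had no donor term, as the study's methods name none, and a second fit took the donor as a block. In 15 leave-one-out fits, which also had no donor term and so did not use the pairing, a single library or both libraries of a donor were dropped. Levels are not compared between genes, since transcript lengths were not used here.

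Of the tenocyte markers SCX, MKX, TNMD, COL1A1, COL1A2, DCN, FMOD, THBS4 and TNC, TNMD had 0 reads in every library, and SCX, MKX and TNC fell with IL-1β. With the donor block COL1A1 (log2FC -1.38, adjusted p = 0.0147, and 0.0682 without the block) and COL1A2 (-1.28, adjusted p = 0.0169, and 0.0614 without it) also passed, lower in 5 of 5 donors. DCN went the other way, higher in 5 of 5 donors, but passed in neither fit (1.01, adjusted p = 0.268 from limma, and 0.0529 with the block). FMOD (-1.31) and THBS4 (-1.22) were lower in 4 donors and higher in 1, and passed in neither fit. The summed level of these 9 genes on the log2 scale was 19.68 to 20.43 in PF alone and 17.86 to 19.91 in IL-1β + PF. Counts were summed before the log, so each sum in this paragraph follows the genes with most reads. Those were COL1A1, COL1A2 and, with IL-1β, DCN here, CD68 among the leukocyte markers and CDH1 among the epithelial ones. Of 5 leukocyte markers, PTPRC, CD3E, CD79A and CSF1R had at most 3 reads in any library and were not tested, and CD68 rose, with a summed level of 5.75 to 6.71 in PF alone and 7.42 to 9.53 in IL-1β + PF. Of 5 markers of pericytes and smooth muscle, RGS5, DES and CSPG4 fell (3.57% of all tested genes did so). MYH11 (-0.56, adjusted p = 0.678 from limma) and NOTCH3 (-0.61, adjusted p = 0.22) passed in neither fit, and MYH11 was 2.53 higher in donor 3. The sums were 11.85 to 15.17 in PF alone and 12.05 to 13.68 in IL-1β + PF. MYH11 had the most reads of this list, except in donor 3 with PF alone, where CSPG4 did. Of 3 tested epithelial markers CDH1 fell (sum 9.08 to 10.62 and 5.53 to 8.80), and PECAM1, VWF and KDR, the tested endothelial markers, and MATN3, the tested chondrocyte marker, passed in neither fit. The part of these shifts in the WNT results was not tested, and in bulk RNA fewer cells of a type and less RNA per cell cannot be told apart.

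Of the 50 genes, 43 had reads in 5 or more libraries and were tested. Without a donor term 6 were differentially expressed (14.0%, against 6.68% of all tested genes, a description since the genes were chosen with earlier results known). WNT2, WNT11, FZD10 and TCF7 rose with IL-1β (9.30%, against 3.11%), and RSPO1 and TCF7L1 fell (4.65%, against 3.57%). With the donor block 9 were differentially expressed (20.9%, against 8.26%), of which 7 were higher (16.3%, against 4.01%) and 2 lower (4.65%, against 4.25%). Of these, 5 were called in both fits. On the variance-stabilized scale WNT5A, WNT9A, LGR6 and ROR2 were called with the block alone, and RSPO1 without it alone. The median log2FC was 0.00 over the 43 genes and -0.01 over all tested genes. A count over the tested members is not independent of the filter, since a gene high in 1 group alone could pass it through that group.

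**Figure D1:**
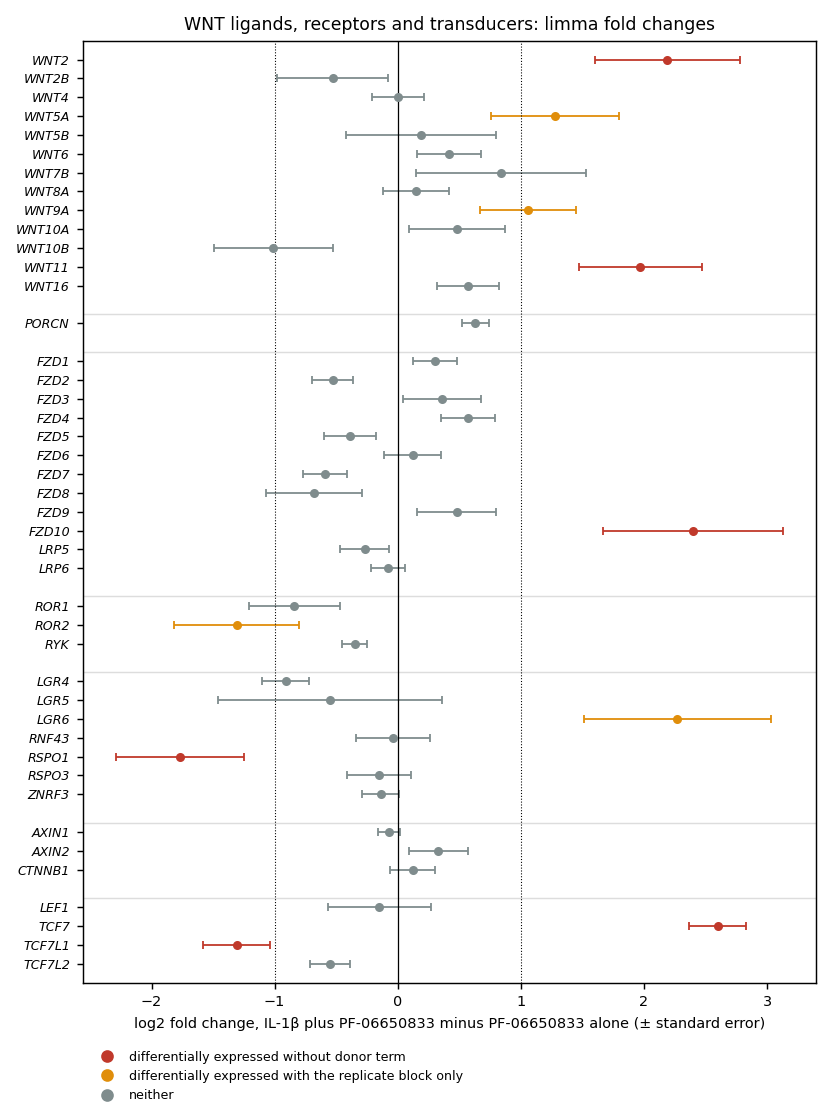
Log2FCs (IL-1β + PF minus PF alone) of the 43 tested genes from limma without a donor term, in blocks by role, with bars of 1 SE and dotted lines at -1 and 1. TCF7 had the largest increase (2.60) and RSPO1 the largest decrease (-1.77), while CTNNB1, AXIN1, AXIN2 and LEF1 lay between -0.15 and 0.33.

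Beside the genes that passed both thresholds, others passed the adjusted p with a smaller change. Without a minimum fold change 11 of the 43 passed (25.6%, against 15.5% of all tested genes) and 15 with the donor block (34.9%, against 22.2%). Groups of 5 libraries that did not overlap were found for 6 of the 43 (14.0%), close to the 12.7% of all tested genes. These were WNT2, PORCN and TCF7, which were higher, and RYK, TCF7L1 and TCF7L2, which were lower with IL-1β.

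The clearest change was among the nuclear partners of β-catenin. TCF7 encodes TCF-1, a DNA-binding protein that recruits β-catenin and is also made in shorter repressive forms. Its log2 expression in donors 1 to 5 was 9.41, 9.21, 9.88, 8.55 and 8.77 with PF alone and 12.08, 11.97, 11.38, 11.64 and 11.78 with IL-1β + PF. Every library with IL-1β lay above every library without it, and the donors lay closer together with IL-1β, with means of 9.17 ± 0.53 (SD, n = 5) and 11.77 ± 0.28 (SD, n = 5). TCF7 rose by a log2FC of 2.60 (SE 0.23, adjusted p = 1.34e-04 from limma), or 6.28-fold on normalized counts, from 325 to 697 reads per library to 2230 to 3512. The smallest rise was that of donor 3 (1.50), which had the highest starting level, and the largest that of donor 4 (3.09), which had the lowest. Since the rise is measured from the starting level, the link between them is partly built in, and this is a description.

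TCF7L1, which encodes TCF-3, a member of the family best known as a repressor, moved the other way. It was at 10.59, 10.93, 10.72, 11.17 and 10.88 in donors 1 to 5 with PF alone and at 9.53, 9.11, 10.25, 10.10 and 8.73 with IL-1β. The groups did not overlap, and the fall was smallest in donor 3 (-0.47) and largest in donor 5 (-2.14). TCF7L1 thus had a log2FC of -1.31 (SE 0.27, adjusted p = 0.00793 from limma, and 0.00654 with the donor block). With no donor term and without both libraries of donor 2, its adjusted p was 0.0515.

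TCF7L2, the gene of TCF-4, was at 10.18, 10.35, 10.36, 10.30 and 10.04 with PF alone and at 9.41, 9.79, 9.98, 10.02 and 9.27 with IL-1β. It was lower in all 5 donors with no overlap, but the change of -0.55 (SE 0.16, adjusted p = 0.0345 from limma) was below the minimum fold change. LEF1, the fourth member, took values of 7.34, 5.76, 5.75, 6.86 and 7.41 without IL-1β and 5.95, 6.45, 6.15, 6.20 and 7.58 with it. It was higher in 3 donors and lower in 2, and no difference was found (log2FC -0.15, 95% confidence interval -1.08 to 0.78, adjusted p = 0.854 from limma). Of the 4 genes of this family, 1 had thus risen, 1 had fallen, and 1 was lower by less than the minimum fold change.

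For β-catenin itself and its scaffolds no change was found. CTNNB1 was at 15.44, 15.35, 15.20, 14.66 and 15.54 with PF alone and at 15.30, 15.36, 15.26, 15.33 and 15.56 with IL-1β, so that all donors other than donor 4 (0.67) moved by at most 0.14. The interval of its log2FC ran from -0.26 to 0.51 (95%, adjusted p = 0.699 from limma). AXIN1, a scaffold of the complex that marks β-catenin for breakdown, took values of 10.83, 11.05, 11.05, 11.01 and 11.06 without IL-1β and 10.91, 10.82, 11.15, 10.94 and 10.80 with it (interval -0.27 to 0.12, adjusted p = 0.641 from limma). Both intervals lie within a change of 1 in either direction.

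AXIN2, a second scaffold whose transcription β-catenin is known to induce in many cell types, differed between donors. Without IL-1β it was at 10.63, 10.69, 9.94, 10.04 and 10.91, and with IL-1β at 10.88, 10.82, 10.81, 11.24 and 10.09. It was higher in 4 donors, by up to 1.20 in donor 4, and lower by 0.82 in donor 5. The groups overlapped, with a log2FC of 0.33 (95% interval -0.19 to 0.84, adjusted p = 0.397 from limma, and 0.411 with the donor block).

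**Figure D2:**
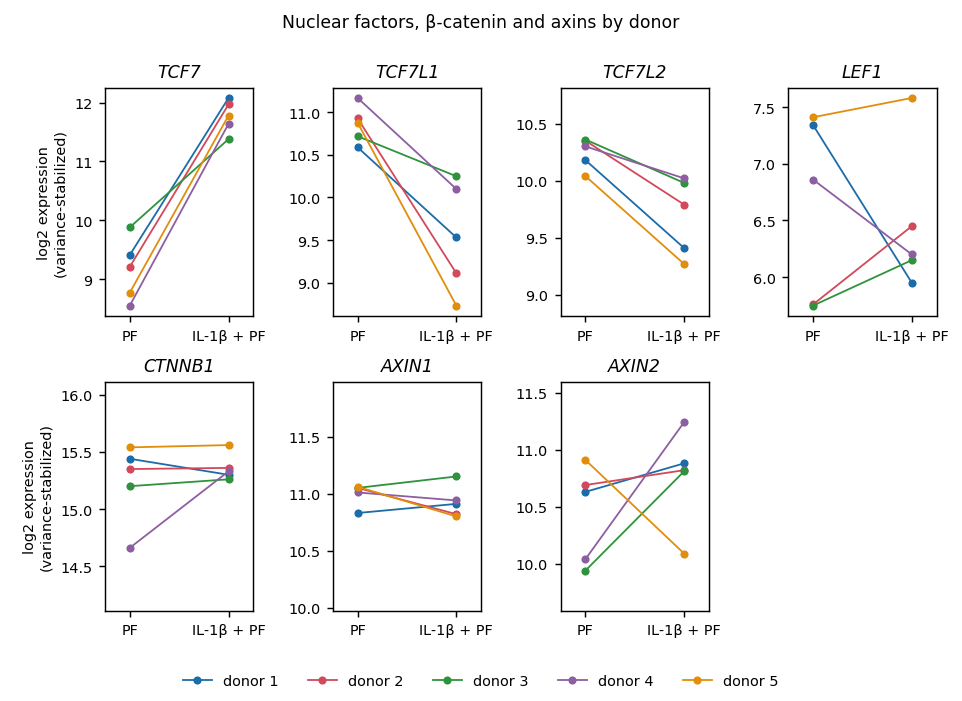
Variance-stabilized log2 expression of the 4 TCF and LEF genes, β-catenin (CTNNB1) and the axins with PF alone (PF) and IL-1β + PF (IL-1β + PF), with 1 line per donor and a separate axis for each gene. TCF7 rose and TCF7L1 and TCF7L2 were lower in all 5 donors, while the lines of LEF1 and AXIN2 cross.

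Among the 19 ligands, 13 were tested. WNT2, a ligand that mostly signals through β-catenin, was at 5.21, 4.74, 4.81, 4.22 and 4.81 in donors 1 to 5 with PF alone and at 6.59, 8.54, 5.66, 5.53 and 8.44 with IL-1β. All libraries with IL-1β lay above the others, and donors 2 and 5 rose most (3.80 and 3.63). Its log2FC was 2.19 (SE 0.59, adjusted p = 0.0283 from limma, and 0.0157 with the donor block). This was 9.25-fold on normalized counts, from 3 to 17 reads to 19 to 309 reads. With no donor term, the adjusted p was between 0.0515 and 0.109 in 9 of the 15 leave-one-out fits. Those fits left out donor 2, 4 or 5 with PF alone, donor 1, 2 or 5 with IL-1β, or both libraries of donor 1, 2 or 5.

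WNT11, a ligand known mainly for signalling without β-catenin, was at 7.34, 7.94, 8.58, 8.49 and 6.92 with PF alone and at 10.17, 11.27, 9.84, 8.29 and 9.55 with IL-1β. It rose in 4 donors by 1.26 to 3.33 and was 0.20 lower in donor 4, so that the groups overlapped through that donor. Its log2FC was 1.97 (SE 0.50, adjusted p = 0.0219 from limma, and 0.0222 with the donor block). With no donor term, the adjusted p was between 0.0536 and 0.117 in 6 of the 15 leave-one-out fits. Those fits left out donor 1 or 5 with PF alone, donor 1 with IL-1β, or both libraries of donor 1, 2 or 5.

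A pair of other ligands passed with the donor block alone. WNT5A, the best known ligand of ROR2, was at 10.20, 8.91, 7.81, 8.53 and 8.67 without IL-1β and at 11.16, 10.84, 9.24, 10.46 and 8.81 with it. It was higher in 5 of 5 donors, by 0.14 in donor 5 and by 0.96 to 1.93 in the others, and the donors differed as much from each other as the groups did. The log2FC was 1.28 (adjusted p = 0.123 from limma, and 0.0116 with the donor block). WNT9A, a ligand known from joint development, was at 9.42, 9.29, 9.34, 8.61 and 8.41 without IL-1β and at 10.90, 9.35, 10.05, 11.05 and 9.01 with it. It was also higher in 5 of 5 donors, by 0.06 in donor 2 and by 2.44 in donor 4, with a log2FC of 1.06 (adjusted p = 0.0954 from limma, and 0.0448 with the donor block). Without donor 5 with IL-1β WNT9A passed in the fit with no donor term (adjusted p = 0.0397).

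The other 9 tested ligands passed in neither fit. WNT7B had a log2FC of 0.84 (adjusted p = 0.462 from limma), with higher values in 4 donors and a difference of -0.36 in donor 4. Without donor 4 with IL-1β its change was 1.14 (adjusted p = 0.0278), and without both libraries of donor 4 it was 1.52 (adjusted p = 0.00986). WNT10B was lower in 4 donors (-1.01, adjusted p = 0.187, and 0.0510 with the donor block), and without donor 3 with PF alone it passed (-1.41, adjusted p = 0.0338). WNT10A was higher in donors 1 to 4 and 1.77 lower in donor 5 (0.48, adjusted p = 0.458), and without both libraries of donor 5 it passed (1.04, adjusted p = 0.0343) on at most 30 reads in any library.

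WNT5B (0.19), WNT2B (-0.53), WNT16 (0.57), WNT6 (0.42), WNT4 (0.00) and WNT8A (0.15) had adjusted p-values from 0.157 to 1.00 by limma. Of these, WNT16, WNT6, WNT4 and WNT8A had at most 22 reads in any library. WNT1 had 0 reads in all 10 libraries, and WNT3, WNT3A, WNT7A, WNT8B and WNT9B had at most 4 reads in any library and were not tested. A difference in these 6 genes was not detectable at this depth.

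PORCN, the enzyme that attaches the lipid on which secretion and receptor binding of WNT proteins depend, was higher by a small and even amount. Its values were between 8.31 and 8.64 with PF alone and between 8.98 and 9.20 with IL-1β, with no overlap. In donors 1 to 5 the difference was 0.74, 0.49, 0.59, 0.64 and 0.68. The log2FC of 0.63 (SE 0.11, adjusted p = 0.00407 from limma) lay below the minimum fold change.

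**Figure D3:**
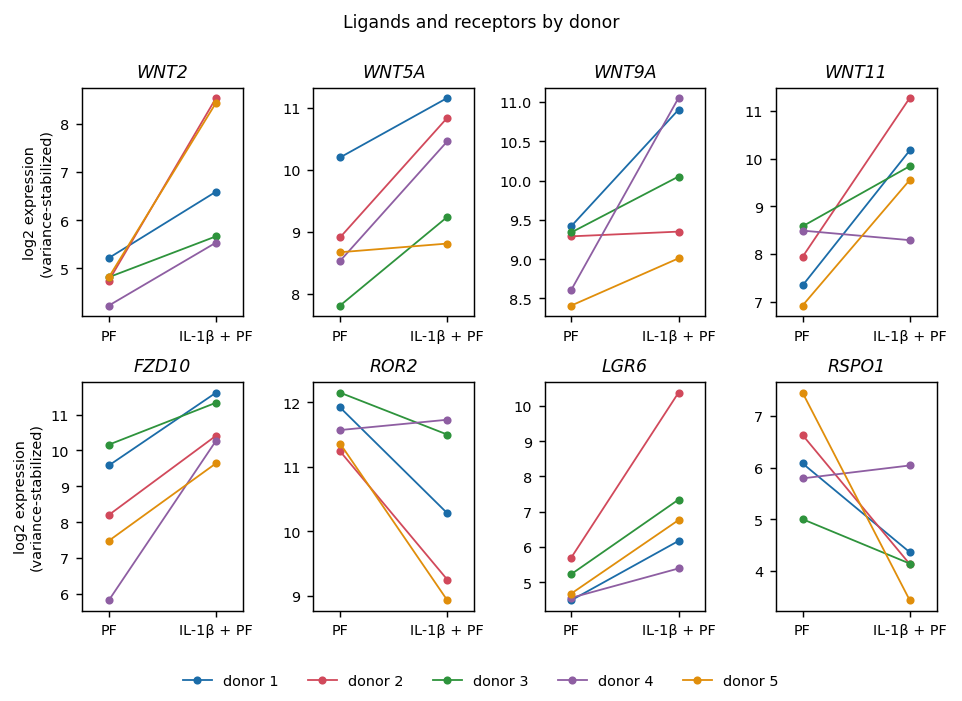
Variance-stabilized log2 expression of the 8 ligands and receptors that were differentially expressed without or with the donor block, with 1 line per donor from PF alone (PF) to IL-1β + PF (IL-1β + PF) and a separate axis for each gene. Lines rise in all 5 donors for WNT2, WNT5A, WNT9A, FZD10 and LGR6, and donor 4 goes against the others for WNT11, ROR2 and RSPO1.

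Of the 12 Frizzled receptors and LRP co-receptors, all were tested and FZD10 was differentially expressed. FZD10, a Frizzled linked mostly to β-catenin signalling, was at 9.58, 8.20, 10.16, 5.82 and 7.48 with PF alone and at 11.61, 10.41, 11.33, 10.27 and 9.64 with IL-1β. It rose in 5 of 5 donors, most in donor 4 (4.45), which had started lowest, though the rise is measured from that start. The spread between donors was wide without IL-1β, with a mean of 8.25 ± 1.72 (SD, n = 5) against 10.65 ± 0.81 (SD, n = 5). FZD10 had a log2FC of 2.40 (SE 0.73, adjusted p = 0.0458 from limma, and 0.00556 with the donor block). Without a donor term it passed in 3 of the 15 leave-one-out fits, which were those without donor 1 or 3 with PF alone and without both libraries of donor 3. In the other 12 fits its adjusted p was between 0.0511 and 0.139, and it also missed the threshold on back-transformed values (0.0521), without the filter on low values and without the mean-variance trend.

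Changes of the other Frizzled genes were under the minimum fold change in both directions. FZD7 was lower (-0.59, adjusted p = 0.0468 from limma) in all donors but donor 3. FZD4 was higher in 5 of 5 donors (0.57, adjusted p = 0.107, and 0.0329 with the donor block), and FZD2 was lower in 5 of 5 (-0.53, adjusted p = 0.0554, and 0.0530 with the donor block). FZD8 differed by -1.53 and -1.61 in donors 2 and 5 and by at most 0.34 in the others (-0.68, adjusted p = 0.282). FZD1 (0.30), FZD3 (0.36), FZD5 (-0.39), FZD6 (0.12) and FZD9 (0.48) had adjusted p-values from 0.241 to 0.770 by limma. For the co-receptors LRP5 and LRP6 the 95% intervals were -0.71 to 0.17 and -0.40 to 0.23.

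The receptors that act beside Frizzled had negative fold changes in all 3 cases. ROR2, a receptor tyrosine kinase that binds WNT5A, was at 11.92, 11.24, 12.15, 11.57 and 11.36 with PF alone and at 10.28, 9.25, 11.50, 11.73 and 8.93 with IL-1β. It was lower in 4 donors by 0.66 to 2.43 and 0.17 higher in donor 4. The log2FC was -1.31 (adjusted p = 0.107 from limma, and 0.0318 with the donor block), and it passed without a donor term once donor 3 or donor 4 with IL-1β was left out (adjusted p = 0.0497 and 0.0299). ROR1, its relative, was 0.37 higher in donor 4 and 0.76 to 1.57 lower in the others (-0.84, adjusted p = 0.148, and 0.0547 with the donor block). RYK, a receptor with a WNT-binding domain and an inactive kinase, was lower in 5 of 5 donors without overlap, but by a small amount (-0.35, SE 0.10, adjusted p = 0.0358 from limma).

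In the R-spondin module the ligand RSPO1 was called lower without a donor term alone on the variance-stabilized scale, and the receptors went different ways. RSPO1 was at 6.08, 6.63, 5.00, 5.79 and 7.45 with PF alone and at 4.36, 4.13, 4.14, 6.04 and 3.43 with IL-1β, the last being the value of 0 reads. It was lower in 4 donors and 0.25 higher in donor 4, and the groups overlapped through that donor. The log2FC was -1.77 (SE 0.52, adjusted p = 0.0424 from limma, and 0.0523 with the donor block), from 11 to 147 reads to 0 to 32 reads. On back-transformed values RSPO1 passed in both fits (-3.32, adjusted p = 0.0355 from limma, and 0.0434 with the donor block). Without a donor term it passed in 4 of the 15 fits, which left out donor 3 with PF alone, donor 4 with IL-1β, or both libraries of donor 3 or 4, and in the other 11 its adjusted p was between 0.0634 and 0.182. RSPO2, with at most 3 reads, was not tested, and RSPO3, with at most 7, gave no difference (-0.15, adjusted p = 0.759).

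LGR6, a receptor of R-spondins, was at 4.49, 5.70, 5.23, 4.56 and 4.68 without IL-1β and at 6.17, 10.37, 7.34, 5.39 and 6.76 with it. It was higher in 5 of 5 donors, by 0.83 in donor 4 and by 4.67 in donor 2, and the groups overlapped. Reads per library went from between 5 and 24 to between 16 and 1150. The log2FC was 2.27 (adjusted p = 0.0689 from limma, and 0.0146 with the donor block). It passed without a donor term when donor 2 or donor 4 with IL-1β or both libraries of donor 2 were left out (adjusted p between 0.0274 and 0.0455). On back-transformed values LGR6 passed in both fits (3.16, adjusted p = 0.0412 from limma, and 0.00423 with the donor block).

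LGR4, the receptor of the same family, was lower in 5 of 5 donors, by 0.34 to 1.44, with values from 9.64 to 10.42 without IL-1β and from 8.80 to 9.71 with it. Its log2FC of -0.91 (SE 0.19, adjusted p = 0.00886 from limma) missed the minimum fold change. It passed without donor 3 with PF alone, without donor 4 with IL-1β and without both libraries of donor 3 or 4, with changes between -1.06 and -1.01. LGR5, a receptor that β-catenin is known to induce in stem cells, differed by -1.70, -2.67 and -2.24 in donors 1, 2 and 5 and by 0.72 and 3.11 in donors 3 and 4 (-0.55, 95% interval -2.55 to 1.44, adjusted p = 0.740). The ubiquitin ligases RNF43 (-0.04) and ZNRF3 (-0.14) had adjusted p-values of 0.945 and 0.602.

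Over the 10 genes called in either fit, the change went in the fitted direction for all 10 in donors 1, 2, 3 and 5 and for 7 in donor 4, where WNT11, ROR2 and RSPO1 went the other way. Over all tested genes, 12.6% differed by at least 1 in donor 4, against 8.09% in donor 3 and 16.7% in donor 5. In donor 3, 10 of 10 moved in the fitted direction, but with a median of 1.26 for the genes that rose, against 1.68 to 2.75 in the other donors. Since the called genes were chosen from these same libraries, these counts are a description.

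**Figure D4:**
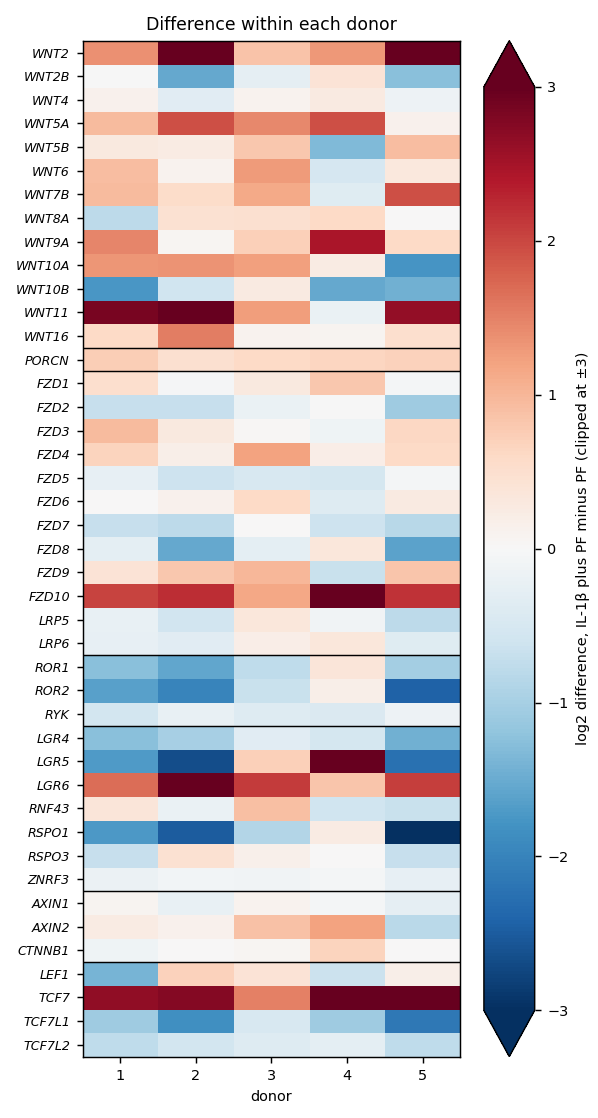
Difference in log2 expression (IL-1β + PF minus PF alone) within each of the 5 donors for the 43 tested genes, in blocks by role, with colours clipped at -3 and 3. TCF7 is red and TCF7L1 blue in every donor, while ROR1, ROR2, LGR5 and RSPO1 are blue in donors 1, 2 and 5 and pale or red in donor 4.

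Other genes of the pathway were followed through 6 lists with 98 distinct genes outside the 50, of which 90 were tested. Of these, 14 were differentially expressed without a donor term (15.6%, against the 6.68% of all tested genes), 5 higher and 9 lower, and their median log2FC was -0.11. Of the 14, 10 were called in all 15 leave-one-out fits. The lists were written with earlier results of these data known.

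Of 8 genes for secretion and surface handling of the ligands, 3 rose (3.11% of all tested genes did so). WLS, the carrier that takes lipid-modified WNT proteins to the cell surface, was between 12.79 and 13.19 without IL-1β and between 14.02 and 14.74 with it (log2FC 1.37, SE 0.14, adjusted p = 2.83e-04 from limma). NOTUM, an enzyme that removes the lipid outside the cell and so inactivates the ligands, rose from between 8.48 and 9.57 to between 10.40 and 11.07 (1.58, adjusted p = 8.14e-04). TRABD2B, a membrane protease that clips WNT proteins, rose by 1.71 (adjusted p = 0.00551). These 3 genes did not overlap between the groups, which also held for 12.7% of all tested genes. The glypican gene GPC3 was lower with the donor block alone (-1.91, adjusted p = 0.0353, against 0.153 without it).

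Of 21 tested cytoplasmic transducers, 1 rose and 2 fell (3.11% and 3.57% of all tested genes did so). NKD1, which binds Dishevelled and is known as a feedback inhibitor induced by β-catenin, was at 5.99, 6.65, 5.78, 5.81 and 6.73 without IL-1β and at 9.12, 9.49, 8.22, 7.90 and 8.89 with it. All 5 donors rose, by a log2FC of 2.53 (SE 0.33, adjusted p = 7.95e-04 from limma). APC2, a relative of the tumour suppressor APC, fell by 1.13 (adjusted p = 0.0454, and 0.0042 with the donor block) and was lower in 5 of 5 donors. Without a donor term it passed in 5 of the 15 leave-one-out fits. CCDC88C, which binds Dishevelled, fell by 1.09 (adjusted p = 0.0285, and 0.0221 with the donor block), also in 5 of 5 donors. It passed in 6 of the 15 fits. For APC2 the fits that lost the call left out donor 3, 4 or 5 with PF alone, donor 1, 2 or 5 with IL-1β, or both libraries of donor 1, 2, 3 or 5 (adjusted p = 0.0721 to 0.191). For CCDC88C they left out donor 2, 4 or 5 with PF alone, donor 1, 2 or 4 with IL-1β, or both libraries of donor 1, 2 or 4 (adjusted p = 0.0483 to 0.123, the lowest of which went with a change under the minimum).

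Of 23 genes of planar cell polarity and other β-catenin-independent routes, 0 rose and 2 fell by limma, in both fits. Over all tested genes 3.11% rose and 3.57% fell without a donor term, and 4.01% and 4.25% with the block. CELSR2, a large cadherin of the polarity pathway, fell by 2.03 (adjusted p = 0.00494), and CAMK2D, a calcium-dependent kinase, by 1.99 (adjusted p = 0.00166). Each fell in 5 of 5 donors without overlap, where 12.7% of all tested genes had none. Without a minimum fold change 1 gene of this list was higher and 5 were lower, and with the donor block 3 and 7 (15.5% and 22.2% of all tested genes passed by these rules in either direction). Of 13 tested nuclear cofactors 0 passed both thresholds by limma in either fit, while 1 was higher and 2 were lower at the adjusted p alone. As 6.68% of all tested genes passed both thresholds without a donor term, a count of 0 among 13 is no result about the cofactors.

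Of 14 tested genes widely used as readouts of β-catenin, 3 rose and 2 fell (3.11% and 3.57% of all tested genes did so). The 3 that rose were NKD1, NOTUM and BAMBI, a decoy receptor of the TGF-β family (1.76, adjusted p = 0.00438). SNAI2, a transcription factor of mesenchymal cells, fell by 2.76 (adjusted p = 0.00458). MSX2, a homeobox gene that the naming rule would have left out and that was added to complete the count, fell by 1.27 (adjusted p = 0.0141, and 0.0122 with the donor block). With no donor term its adjusted p was 0.0589 and 0.0740 without both libraries of donor 1 or 5. Members of this list thus moved in both directions. At the adjusted p alone 3 were higher and 3 lower, and with the donor block 4 and 3 (15.5% and 22.2% of all tested genes passed in either direction). They included CD44 (-0.83, adjusted p = 0.0103), lower in 5 of 5 donors, and with the block DKK1 (0.84, adjusted p = 0.0322, against 0.307 without it). MYC (-0.18, adjusted p = 0.473) and CCND1 (0.94, adjusted p = 0.160) passed in neither fit. These 4 genes were named after their values were seen.

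A list of secreted antagonists and their receptors had 14 tested genes, of which 0 rose and 3 fell by limma (3.11% and 3.57% of all tested genes did so). SFRP2 and SFRP4, which bind WNT proteins outside the cell, fell by 5.18 and 4.26 (adjusted p = 0.00140 and 0.00656). KREMEN1, a membrane receptor of Dickkopf proteins that is not itself secreted, fell by 1.84 (adjusted p = 0.0186, and 0.0256 with the donor block). With no donor term the adjusted p of KREMEN1 was 0.0731 and 0.0741 without both libraries of donor 1 or 2.

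**Figure D5:**
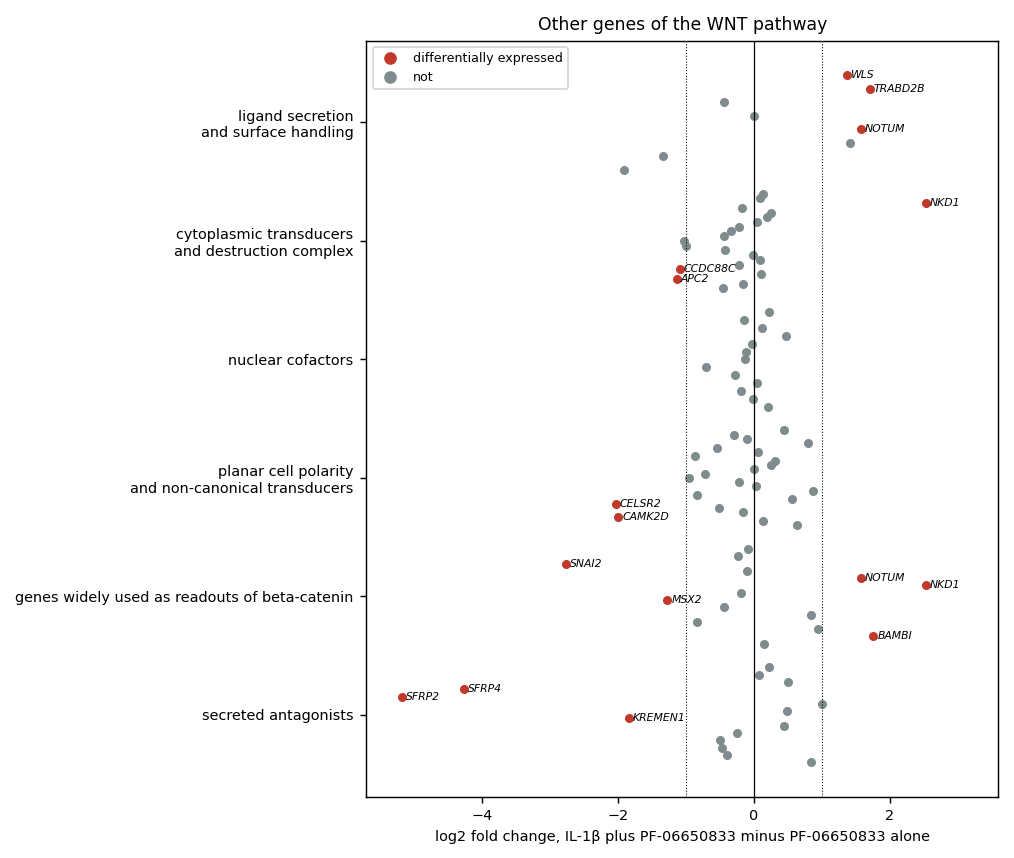
Log2FCs (IL-1β + PF minus PF alone) of the tested genes in 6 lists of other WNT pathway genes from limma without a donor term, 1 point per gene, with dotted lines at -1 and 1. NKD1 (2.53) and NOTUM (1.58), each in 2 lists, stand to the right, and SFRP2 (-5.18) and SFRP4 (-4.26) to the left.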

How the data were processed

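Per the paper's methods and the submitters' processing notes, the authors checked reads with FastQC (version 0.11.9), quantified them with Salmon (version 1.8) on the EquCab3.0 transcriptome with correction for GC bias, summed them to genes with tximport and tested them with DESeq2 (version 1.36). The deposited values are on a log2 scale, variance-stabilized and normalized between libraries. That transformation was recognised from the values, and the authors' test was not repeated. All 10 columns were used.

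As the values are not counts, limma was used (version 3.58.1 in R 4.3.3), with its mean-variance trend, on the 17992 genes that exceeded 3.433, the value of 0 reads, in 5 or more libraries, and p-values were adjusted by Benjamini-Hochberg over all of them. Normalized counts were recovered by inverting the transformation from its value at 0 reads, and reads from the spacing of low values, of which, depending on the library, 65.6% to 83.8% fell within 0.15 of whole reads. These reads are approximate, and intervals given are those of limma.

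The label of the tenocyte line, numbered here as donors 1 to 5, pairs the libraries. Deviations from the group means correlated across genes between 0.367 and 0.506 for the 5 pairs of the same donor and between -0.266 and 0.087 for the 20 pairs of different donors. Blocked results are given where they change the call of a named gene. The 10 libraries were not duplicates (Pearson r 0.966 to 0.991).

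The members and lists were chosen with earlier results of these data known. Values of every library are given for members differentially expressed in either fit and for the nuclear factors, β-catenin and axins. From each other list up to 4 genes are named by adjusted p, and further ones are marked as added or as named after their values were seen. All 50 names were found among RefSeq genes of another horse assembly (TB-T2T), used for names only, so no positions or sequences are given. Alternatives were the donor block, other thresholds, filters, scales, normalizations and variance models, and leaving out each library or donor.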

Additional observations from a re-analysis of the deposited data

Results flagged for a closer look

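By Dixon's gap ratio, 1 library stood apart in 4 of the 86 groups of 5 libraries (43 tested genes, both treatments), where chance gives about 4.30. In the IL-1β plus PF-06650833 library of donor 4, WNT7B had a value of 8.44 (230 reads), while the other donors had 11.61 to 12.10 (2499 to 3733 reads). FZD3 was at 4.92 in the same library (9 reads), against 6.04 to 6.31 (40 to 51 reads). With PF-06650833 alone, WNT4 was at 4.91 in donor 2 (9 reads), against 3.90 to 4.16 (1 to 2 reads), and AXIN1 was at 10.83 in donor 1, against 11.01 to 11.06. The cause was not tested for any of them.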

How the results depend on the processing

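Against 6 differentially expressed genes (4 higher, 2 lower), the replicate block of donors gave 9 (7 higher, 2 lower), no minimum fold change gave 11 (5 higher, 6 lower), and both together 15 (9 higher, 6 lower). Back-transformed values with a pseudocount of 1 and the replicate block gave 10 (7 higher, 3 lower), and array weights gave 9 (5 higher, 4 lower). The counts under the 2 other filters, back-transformation alone, quantile normalization, centring and no mean-variance trend were 5 or 6. When single libraries or donors were dropped (15 leave-one-out fits), 2 to 9 genes were called, 1 to 5 of them higher and 0 to 4 lower, while 4.24% to 7.90% of all tested genes were called in the same fits, against 6.68% with all libraries. The count was 2 without donor 5 with PF-06650833 alone, donor 1 with IL-1β or both libraries of donor 1 or 2, was 3 without donor 2 or 4 with PF-06650833 alone or both libraries of donor 5, and was 9 without donor 4 with IL-1β (4.24% to 6.04%, and 7.90%, of all tested genes). TCF7 was called under all 27 alternatives. Of the 37 genes not called, 24 were called under none of them, and 0 called genes changed direction. The cause of these changes was not tested. Genes with fewer than about 30 reads, such as WNT16, WNT8A and RSPO3, allow no statement on small differences at this depth.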
